A study of Mus musculus with 39 samples.

Results

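The genes followed here encode the receptors through which serotonin, dopamine, adrenaline and noradrenaline, acetylcholine and histamine act on cells. They were taken by gene symbol from the count tables, as every row named for a serotonin (Htr), dopamine (Drd), adrenergic (Adra, Adrb), muscarinic (Chrm), nicotinic (Chrn) or histamine (Hrh) receptor gene matched by a fixed symbol pattern, which gave 52 of 50559 genes. The 52 are 13 serotonin, 5 dopamine, 9 adrenergic, 5 muscarinic, 16 nicotinic and 4 histamine receptor genes. No measured value enters the pattern, though it was chosen with earlier results of these data known.

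The series holds 39 RNA-seq libraries from female mice 9 months old, made from 2 tissues, the basolateral amygdala (BLA) and the hippocampus. APP/Tau mice carried the APPSw,Ind transgene of the J9 line and the Tau P301S transgene of the PS19 line, and control mice carried neither. Mice of both genotypes also carried CaMKIIα-Cre, which is active in glutamatergic neurons of the postnatal forebrain, and RiboTag, but only the input fraction was sequenced, so the libraries hold RNA of every cell type in the tissue. Trained mice heard a tone that ended in a footshock and were killed 1 hour later, and naive mice were not conditioned. The BLA gave 4 APP/Tau trained, 5 APP/Tau naive, 5 control trained and 5 control naive libraries. The hippocampus gave 4 APP/Tau trained, 5 APP/Tau naive, 6 control trained and 5 control naive libraries. The BLA was taken with micropunches of 1 mm, which can include neighbouring tissue, and the hippocampus was cut out with a scalpel. BLA libraries were made from less RNA (10 ng) than hippocampal ones (50 ng), so tissue and RNA input cannot be told apart.

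Most of these receptors pass their signal to G proteins. Receptors coupled to Gi lower cyclic AMP and open potassium channels, those coupled to Gs raise cyclic AMP, and those coupled to Gq activate phospholipase C. Nicotinic receptors are instead pentameric cation channels opened by acetylcholine. The transmitters reach the hippocampus and the amygdala through axons whose cell bodies lie elsewhere, in the brainstem, hypothalamus and basal forebrain, and in both tissues they tune excitability, plasticity and the response to threat.

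Each BLA library held 50.3 M to 74.3 M counts (median 59.3 M) and each hippocampal library 92.1 M to 128 M (median 110 M), where M is 1000000. In the hippocampus of APP/Tau mice Prnp, the gene whose promoter drives the PS19 transgene, averaged 1895 ± 185 CPM (counts scaled to a common library size of 1000000), against 866.5 ± 65.9 CPM in controls (SD, n = 9 and 11). In the BLA it averaged 1410 ± 197 CPM in APP/Tau and 951.7 ± 95.8 CPM in control mice (SD, n = 9 and 10). App, the mouse counterpart of the other transgene, averaged 2468 ± 150 CPM in APP/Tau and 1807 ± 101 CPM in control hippocampi, and 1943 ± 199 CPM in APP/Tau and 2160 ± 199 CPM in control BLA. Mapt, the tau gene, averaged 630.4 ± 25.1 CPM in APP/Tau and 542.4 ± 21.5 CPM in control hippocampi, and 615.9 ± 56.7 CPM in APP/Tau and 612.6 ± 49.1 CPM in control BLA. All 3 genes passed the genotype test in the hippocampus, Prnp alone of them passed in the BLA, and the genotype effects on App and Prnp were lower in the BLA than in the hippocampus (differences on the log2 scale -0.60 ± 0.08 and -0.54 ± 0.10, adjusted p = 0.00023 and 0.023). Tissue labels were checked against markers in controls: of 8 dentate granule cell markers, 1 was higher and 7 lower in the BLA than in the hippocampus, and of 10 markers of BLA projection neurons, 6 were higher and 2 lower. Of 15 measured markers of striatum and central amygdala, regions that border the BLA, 13 were higher in the BLA punches and none lower. The sum of those 15 ran from 521.5 to 4697 CPM among the BLA controls and from 229 to 275.9 CPM among the hippocampal controls, and no marker of that list was at 0 throughout a group.

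Of the 52 genes, 47 had enough counts to be tested over both tissues, 45 in the BLA alone and 46 in the hippocampus alone. Chrna9, Chrnd, Chrng, Hrh4 and Htr3b were tested nowhere. Chrnd had no count in any library, Chrng had 1 count in a single library, and no library had more than 8 counts of Chrna9, 10 of Htr3b or 12 of Hrh4. Chrnd, Chrng, Chrna1, Chrnb1 and Chrne encode subunits of the muscle receptor, and Chrna9 is best known from cochlear hair cells. Chrna10 was tested in the BLA but not in the hippocampus alone, and Chrnb3 and Chrne in the hippocampus but not in the BLA alone.

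Levels of different genes were compared per kilobase of merged exon length. The lengths are from GENCODE M21 on build GRCm38, whereas the counts are on mm39, so the gene models counted may differ. Lengths were 1.44 kilobases for Chrm4, 1.9 for Adra1d, 3.15 for Hrh3 and 6.49 for Chrm1, and the order below depends on them. In BLA controls the most abundant receptor RNA was Hrh3, the presynaptic histamine H3 receptor, at 37.1 CPM per kilobase. It was followed by the Gi-coupled muscarinic receptor Chrm4 at 35.7, the Gq-coupled muscarinic receptor Chrm1 at 31.9, the serotonin receptor Htr2c at 15.1 and the dopamine receptor Drd2 at 14.9 CPM per kilobase. In hippocampal controls the order was different. The alpha-1D adrenergic receptor Adra1d stood at 39.3 CPM per kilobase, ahead of Chrm1 at 37.1, Chrm4 at 15, Hrh3 at 12.2, Chrm3 at 10.8 and Htr1a at 8.54. Chrm1 and Chrm4 were thus among the 3 highest in both tissues, while Drd2 was the 5th in the BLA and the 30th in the hippocampus.

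The comparison of BLA with hippocampus in controls asks how the receptor set differs between the regions in mice without the transgenes, naive and trained together. Of the set, 40 of the 47 genes tested passed an adjusted p of 0.05 in edgeR's quasi-likelihood F test, 25 higher and 15 lower in the BLA. Over all 26725 genes 55.4% passed, with 26.8% higher and 28.6% lower, so the tissues differ widely in any case, and 42 of the 47 against 59.7% of all genes had an unadjusted p under 0.05. Among those called, 17 receptor genes were at least 2-fold higher and 11 at least 2-fold lower in the BLA, against 8.14% and 10.2% of all genes. Their median log2 fold change was 0.33, against -0.03 over all genes. DESeq2 and limma-voom each called 41 of the 47. In bulk tissue, fewer cells of a type and less RNA per cell cannot be told apart.

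**Figure D1:**
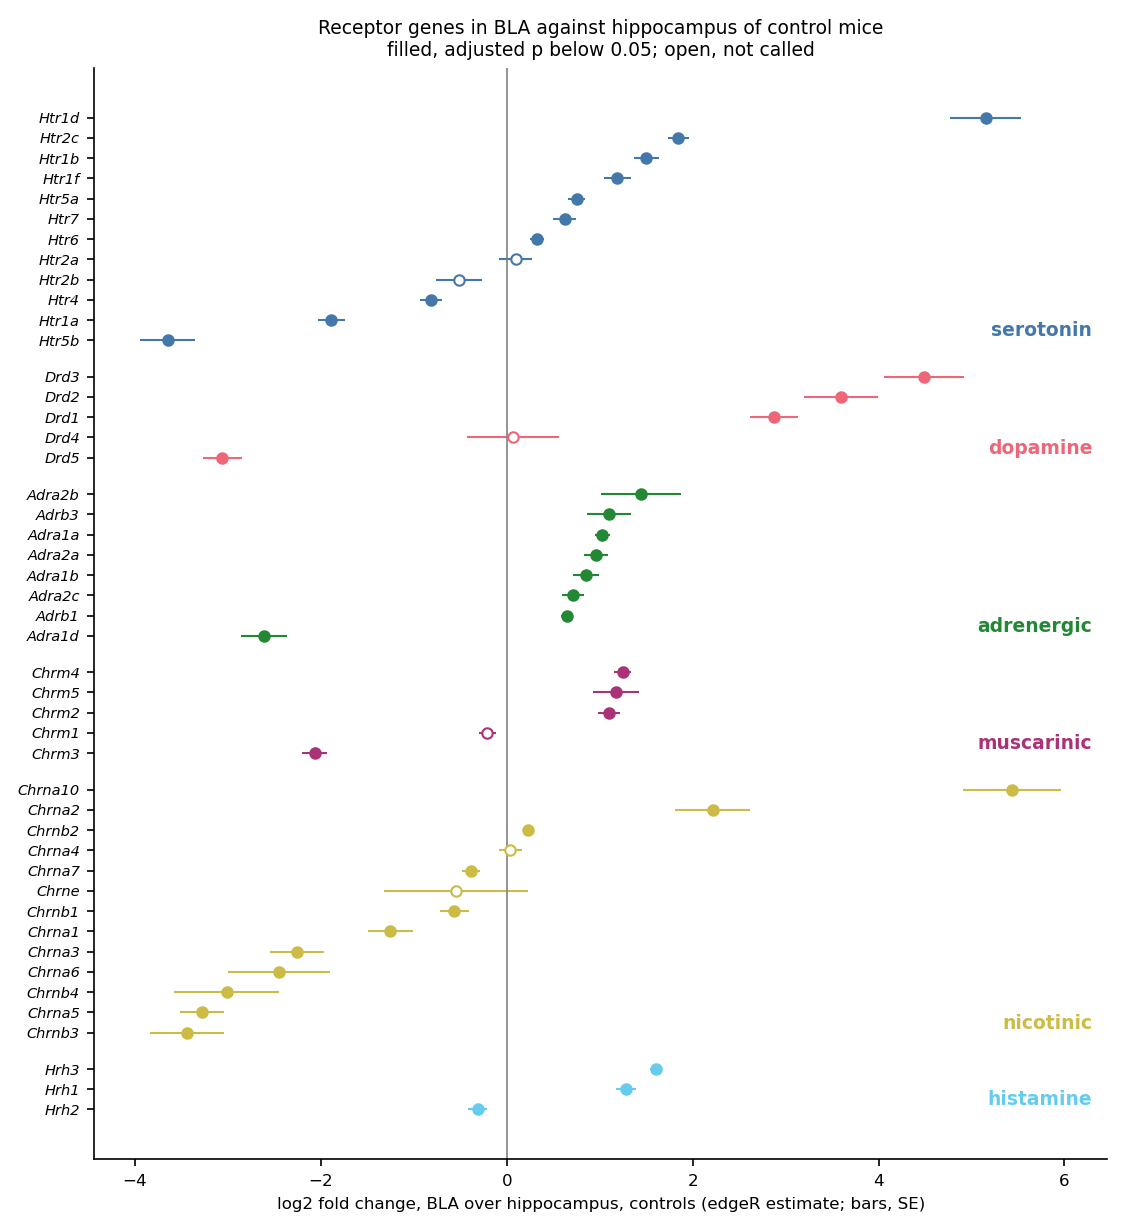
Log2 fold change of BLA over hippocampus in control mice (10 and 11 libraries) for the receptor genes tested, all but 1 of the 47, grouped by transmitter, with bars for the SE. Filled points passed an adjusted p of 0.05 in edgeR: 25 lie right of 0 (higher in BLA) and 15 left of it, and the nicotinic group is the one that lies mostly to the left.

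Directions are given here by coupling class. Of 15 tested genes for Gi-coupled receptors, 12 were higher in the BLA and 2, Htr1a and Htr5b, were lower, with Drd4 not called (median log2 fold change 1.19). Of 10 genes for Gq-coupled receptors, 5 were higher and 2, Adra1d and Chrm3, lower (median 0.47). Of 9 genes for Gs-coupled receptors, 5 were higher and 3, Drd5, Htr4 and Hrh2, lower (median 0.33). The 13 tested channel genes, all nicotinic subunits, ran the other way, with 3 higher and 8 lower in the BLA (median -0.57).

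Among the dopamine receptors, the D1 to D3 genes were higher in the BLA and the D5 gene was lower. Drd1, the main Gs-coupled dopamine receptor, ranged from 20.3 to 119 CPM in BLA controls (median 37.5) and from 3.67 to 7.10 CPM in hippocampal controls (median 6.33). Drd2, the main Gi-coupled one, ranged from 9.12 to 146 CPM (median 30.0) in the BLA and from 2.35 to 4.43 CPM (median 2.78) in the hippocampus. Neither gene's ranges overlapped between the tissues, and in the BLA a single control library was far above the others for both. The log2 fold changes were 2.88 ± 0.26 (SE, adjusted p = 1.1e-11) for Drd1 and 3.598 ± 0.400 (adjusted p = 1.4e-09) for Drd2. Drd3, a Gi-coupled receptor best known from the ventral striatum, had 0.531 to 3.22 CPM (median 1.43) in BLA controls and 0 to 0.155 CPM (median 0.0668) in hippocampal controls, a log2 fold change of 4.49 ± 0.43 (adjusted p = 4.9e-11). Drd5, which like Drd1 raises cyclic AMP, had 1.00 to 3.55 CPM (median 1.69) in the BLA and 13.5 to 21.4 CPM (median 16.8) in the hippocampus. All hippocampal controls lay above all BLA controls for Drd5, with a log2 fold change of -3.06 ± 0.21 (adjusted p = 6.5e-15). An antisense gene, Gm26560, overlaps 48.6% of the Drd5 exons, and its own level did not pass 0.633 CPM in any control library. Its median was 0.0236 CPM in BLA controls and 0.277 CPM in hippocampal controls, the same direction as Drd5. The strand setting of the counting is not given, so reads of these genes cannot be told apart. Drd4 was close to 0 in both tissues (0.105 ± 0.066 CPM in the BLA and 0.112 ± 0.093 CPM in the hippocampus, SD, n = 10 and 11) and was not called.

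**Figure D2:**
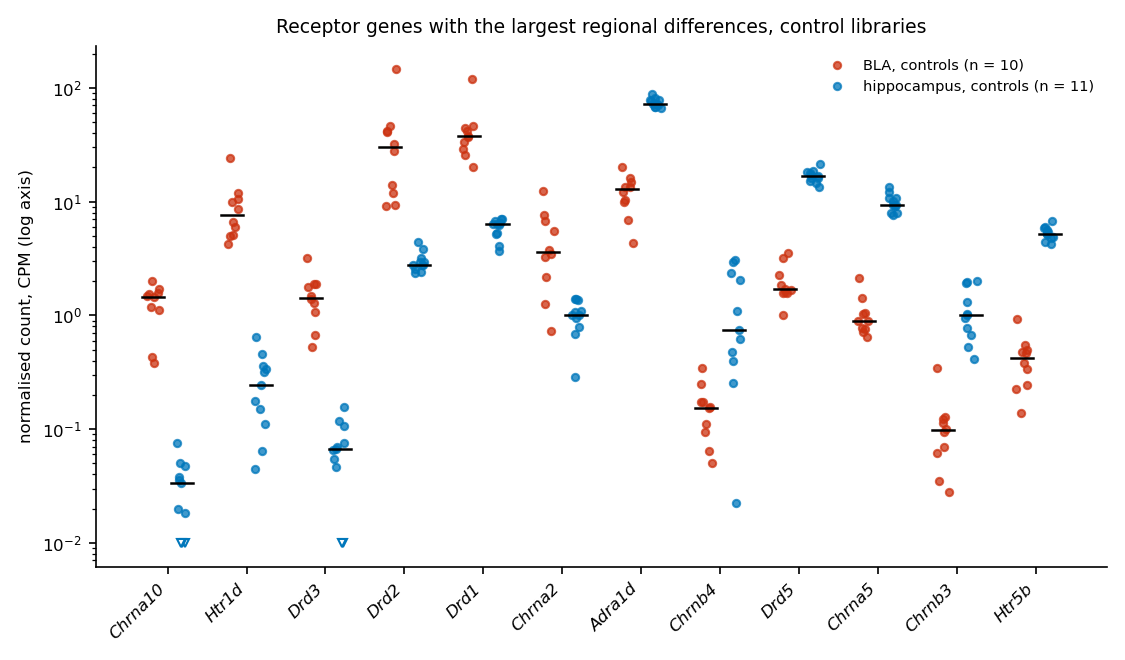
Normalised counts (CPM, log axis) of the 12 receptor genes with the largest called regional fold changes (6 in each direction, averaging at least 1 CPM in the higher tissue) in each control library, BLA left (10 libraries) and hippocampus right (11 libraries) for each gene. Horizontal lines are medians and open triangles at the bottom mark libraries with no count; Chrnb4 and Chrna2 are the 2 genes whose ranges overlap between tissues.

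Of 12 serotonin receptor genes tested, 7 were higher and 3 lower in the BLA. Htr1d, a Gi-coupled receptor found on axon terminals, had 4.21 to 24.0 CPM (median 7.64) in BLA controls and 0.0444 to 0.644 CPM (median 0.246) in hippocampal controls. The ranges did not overlap, and the log2 fold change was 5.15 ± 0.38 (adjusted p = 6.5e-14). Its close relative Htr1b was higher by 1.499 ± 0.134 on the log2 scale. Htr2c, a Gq-coupled receptor, had 112 to 177 CPM (median 141) in BLA controls and 29.2 to 60.5 CPM (median 34.5) in hippocampal controls, with no overlap and a log2 fold change of 1.84 ± 0.11 (adjusted p = 3.4e-16). Htr1f, Htr5a, Htr7 and Htr6 followed at log2 fold changes of 1.19, 0.75, 0.62 and 0.33. Htr5b went furthest the other way. This Gi-coupled receptor, whose human counterpart is a pseudogene, had 0.140 to 0.921 CPM (median 0.423) in the BLA and 4.20 to 6.69 CPM (median 5.23) in the hippocampus. Every hippocampal control was above every BLA control, with a log2 fold change of -3.65 ± 0.29 (adjusted p = 5.8e-13). Htr1a, the receptor by which serotonin quiets both raphe neurons and their forebrain targets, had 5.71 to 16.8 CPM (median 10.5) in the BLA and 33.6 to 43.1 CPM (median 37.9) in the hippocampus (log2 fold change -1.89 ± 0.15, adjusted p = 2.2e-13). Htr4, a Gs-coupled receptor, was lower in the BLA by 0.82 on the log2 scale, and Htr2a and Htr2b were not called.

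Of the 9 adrenergic genes 7 were higher in the BLA and 1 was lower. Adra1a, Adra1b, Adra2a, Adra2b, Adra2c, Adrb1 and Adrb3 had log2 fold changes between 0.65 and 1.44. Adra1d had 4.29 to 20.3 CPM (median 12.9) in BLA controls and 67.0 to 89.1 CPM (median 72.8) in hippocampal controls. The gap between the tissues was wider than either range, with a log2 fold change of -2.61 ± 0.25 (adjusted p = 3.4e-11). Adra1a, coupled to Gq like Adra1d, was instead higher in the BLA by 1.03 ± 0.08 (adjusted p = 1.0e-12).

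The muscarinic receptors split as well. Chrm4, Chrm5 and Chrm2 were higher in the BLA, at log2 fold changes of 1.25, 1.17 and 1.10, and Chrm1 missed the threshold at -0.21 ± 0.09 (adjusted p = 0.051). Chrm3, a Gq-coupled receptor, had 9.00 to 27.9 CPM (median 15.3) in BLA controls and 57.3 to 72.9 CPM (median 69.7) in hippocampal controls, without overlap, at a log2 fold change of -2.07 ± 0.13 (adjusted p = 1.8e-15). Of the histamine receptors, Hrh3 had the smallest p of all 47 genes. It had 99.4 to 129 CPM (median 118) in BLA controls and 31.0 to 47.1 CPM (median 40.1) in hippocampal controls, a log2 fold change of 1.60 ± 0.07 (adjusted p = 2.4e-21). The Gq-coupled Hrh1 was higher in the BLA by 1.28 ± 0.11 and the Gs-coupled Hrh2 lower by 0.31 ± 0.10 on the log2 scale.

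Nicotinic subunits differed among themselves. The subunits of the most common brain receptor, Chrna4 and Chrnb2, had small fold changes: Chrna4 was at 0.04 ± 0.12 and not called, and Chrnb2 was higher in the BLA by 0.23 ± 0.04 on the log2 scale. Chrna7, which forms receptors of its own, was lower in the BLA by 0.38 ± 0.10. Chrna5, Chrna3 and Chrnb4, neighbours in a gene cluster on chromosome 9 that is known for its link to nicotine dependence in people, were all lower in the BLA. Chrna5, an accessory subunit, had 0.642 to 2.14 CPM (median 0.896) in BLA controls and 7.599 to 13.5 CPM (median 9.42) in hippocampal controls (log2 fold change -3.28 ± 0.24, adjusted p = 2.7e-14). Chrnb4, the partner of Chrna3 in habenular receptors, had 0.0505 to 0.343 CPM (median 0.154) in the BLA and 0.0222 to 3.05 CPM (median 0.751) in the hippocampus. The tissues overlapped for Chrnb4 because 1 hippocampal control, at 0.0222 CPM, lay below all BLA controls and another, at 0.255 CPM, below the highest of them, and its log2 fold change was -3.01 ± 0.57 (adjusted p = 2.4e-05). Chrna3 was lower in the BLA by 2.26 ± 0.29.

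The 250 bases before the annotated start of the cluster genes are shown because these 3 neighbours were all lower in the BLA, and those of Htr1a because it was called in the hippocampal genotype comparison. The sequences are from RefSeq on build GRCm38.p6, whose promoter table held 40 of the 52 genes, and capitals mark GC boxes (GGGCGG on either strand), the binding motif of Sp1-type factors.
Chrna5, chr9:54981238-54981487, plus strand: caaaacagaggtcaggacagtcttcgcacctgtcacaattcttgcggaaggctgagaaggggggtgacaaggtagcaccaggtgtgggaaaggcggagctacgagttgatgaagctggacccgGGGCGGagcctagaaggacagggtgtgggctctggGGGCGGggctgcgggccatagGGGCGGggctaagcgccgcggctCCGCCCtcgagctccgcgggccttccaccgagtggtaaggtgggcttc
Chrna3, chr9:55026563-55026812, minus strand: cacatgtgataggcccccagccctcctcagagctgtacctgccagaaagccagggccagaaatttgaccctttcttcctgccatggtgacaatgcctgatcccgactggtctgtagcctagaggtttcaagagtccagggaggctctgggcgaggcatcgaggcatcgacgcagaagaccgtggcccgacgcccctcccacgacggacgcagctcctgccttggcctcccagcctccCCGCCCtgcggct
Chrnb4, chr9:55048545-55048794, minus strand: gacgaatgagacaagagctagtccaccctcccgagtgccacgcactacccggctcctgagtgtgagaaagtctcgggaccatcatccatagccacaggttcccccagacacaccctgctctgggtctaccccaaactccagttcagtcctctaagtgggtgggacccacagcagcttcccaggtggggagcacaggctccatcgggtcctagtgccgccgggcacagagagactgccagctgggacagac
Htr1a, chr13:105443443-105443692, plus strand: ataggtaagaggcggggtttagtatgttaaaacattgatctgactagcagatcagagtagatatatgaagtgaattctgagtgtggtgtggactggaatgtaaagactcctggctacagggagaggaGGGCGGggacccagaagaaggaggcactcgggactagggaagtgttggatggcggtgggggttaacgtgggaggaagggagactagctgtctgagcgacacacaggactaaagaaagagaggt
The window of this Chrna5 start holds 4 GC boxes, those of Chrna3 and Htr1a hold 1 each and that of Chrnb4 holds 0, and a second annotated Chrna5 start also holds 0. Of 32851 promoters of the same length 32.7% hold at least 1. The matches describe the letters of these windows and nothing more.

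Chrnb3 and Chrna6, which often assemble together in dopamine neurons, were also lower in the BLA. Chrnb3 had 0.0280 to 0.342 CPM (median 0.0973) in BLA controls and 0.411 to 2.01 CPM (median 1.00) in hippocampal controls, a log2 fold change of -3.44 ± 0.40 (adjusted p = 3.4e-09). Chrna6 was scarce in both tissues, at 0.0771 ± 0.0766 CPM in the BLA and 0.353 ± 0.156 CPM in the hippocampus (SD, n = 10 and 11). On the other side stood Chrna2 and Chrna10. Chrna2, known in the hippocampus as a marker of a type of interneuron, had 0.734 to 12.3 CPM (median 3.62) in BLA controls and 0.287 to 1.40 CPM (median 1.01) in hippocampal controls. Its ranges overlapped, and the log2 fold change was 2.22 ± 0.40 (adjusted p = 1.5e-05). Chrna10, which forms the hair cell receptor with Chrna9, had 20 to 123 counts in each BLA control and 0 to 8 counts in each hippocampal control, or 0.379 to 2.00 CPM (median 1.46) and 0 to 0.0757 CPM (median 0.0334). The fitted log2 fold change of 5.44 ± 0.53 (adjusted p = 5.3e-11) rests on those few hippocampal counts. The gene Art1 overlaps 39% of the Chrna10 exons on the other strand and was itself higher in the BLA, with a median of 0.592 CPM in BLA controls and 0.0835 CPM in hippocampal controls. Because the strand setting of the counting is not given, reads of such partners cannot be told apart. The same holds for genes on the other strand that overlap 24.9% of the exons of Adrb3, 18% of Htr1b, 16.3% of Chrnb2, 11.8% of Htr2b, 11.1% of Hrh3, 7.74% of Adra1d, 5.07% of Chrm1, 2.44% of Hrh2 and 2.35% of Chrm2.

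Within each tissue some receptor genes moved with markers of neighbouring regions. A score, the mean log2 CPM of the striatum and central amygdala markers, ran from 3.90 to 7.21 over the 19 BLA libraries and from 2.35 to 3.36 over the 20 hippocampal ones. Over the BLA libraries, 8 of 45 receptor genes correlated positively with it and 2 negatively. For these, both Pearson's and Spearman's permutation p were under 0.05 after Benjamini-Hochberg adjustment over 137 relations. The relations were chosen after values had been seen. They cover receptor genes only, so the share of all genes that track the score is not known. Drd2 tracked the score most closely, at r = 0.991 and rho = 0.975 (permutation adjusted p = 0.000274 and 0.000342), and r was 0.987 without the 2 libraries farthest from the median. Drd1 had r = 0.914 and rho = 0.900 (0.875 without those libraries), and Htr1d r = 0.915 and rho = 0.900 (0.862 without them), with the same permutation adjusted p as Drd2. Adra2b, Htr1b, Chrna2, Drd3 and Chrm5 followed with r between 0.689 and 0.830, and Adra1d (r = -0.695) and Chrm1 (r = -0.668) ran opposite. With group means removed, r for these 10 genes lay on the same side, at 0.991 for Drd2 and at -0.615 for Chrm1. In the BLA control library with the lowest score, 3.90, Drd1 stood at 29.0 CPM and Drd2 at 9.37 CPM, both above every hippocampal control. That library's score was itself above those of the hippocampal controls, which ran from 2.35 to 2.83. How far bordering tissue contributes to the regional differences of these 8 genes was not tested.

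In the hippocampus, Chrnb4, Chrnb3 and Chrna3 moved with markers of the medial habenula, a nucleus that lies under the hippocampus and is rich in these subunits. Over the 20 libraries Chrnb4 had r = 0.861 and rho = 0.817 (permutation adjusted p = 0.000274 and 0.000548), Chrnb3 r = 0.852 and rho = 0.829 (0.000274 and 0.000342), and Chrna3 r = 0.798 and rho = 0.746 (0.000979 and 0.0036). Without the 2 libraries farthest from the median, r was 0.731, 0.765 and 0.687 for these genes in that order. The sum of the 8 habenula markers was 45.8 to 80.9 CPM in BLA controls and 40.9 to 70.8 CPM in hippocampal controls. In the regional comparison 3 of the 8 were higher and 5 lower in the BLA. The defining marker Pou4f1 had a median of 0 CPM in BLA controls and 1.19 CPM in hippocampal controls, where the highest library had 4.18 CPM. Tac2, the gene of neurokinin B and also on the list, went the other way, with a median of 17.45 CPM in BLA controls and 3.05 CPM in hippocampal controls (log2 fold change 2.51 ± 0.24, adjusted p = 3.3e-11). Chrna5, the other cluster gene, did not pass this test, and none of the 46 genes did against a list of choroid plexus and ependyma markers. Only receptor genes were correlated, so the share of all genes that move with these lists is not known. The part of habenular tissue in the regional differences of the 3 genes was not tested.

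**Figure D3:**
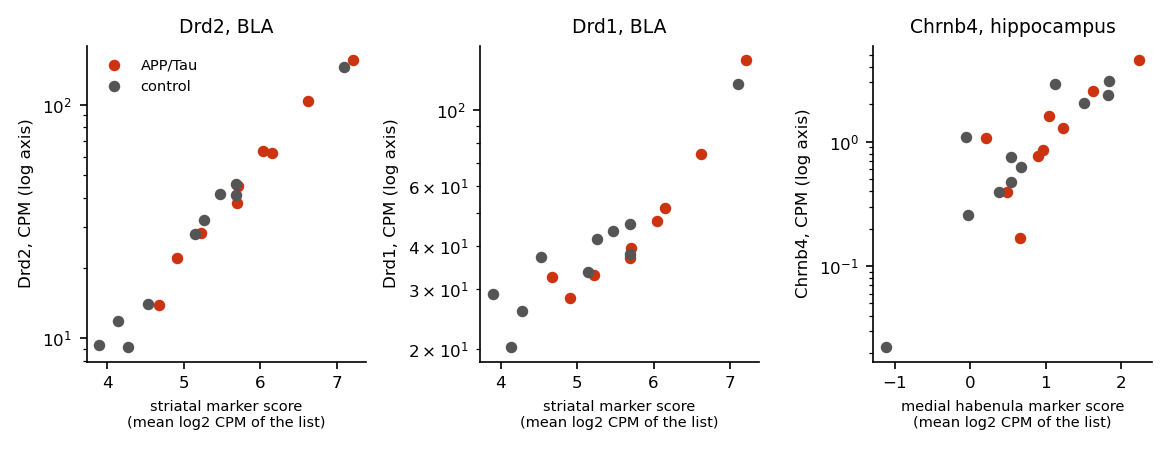
Normalised counts (CPM, log axis) against the mean log2 CPM of a marker list, each point a library: Drd2 and Drd1 against the striatal list over 19 BLA libraries, and Chrnb4 against the medial habenula list over 20 hippocampal libraries. Points rise along the score in both genotypes, with r = 0.991, 0.914 and 0.861.

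Genes that make, clear or transduce these transmitters were read from lists chosen with earlier results of these data known. Of 15 tested genes for monoamine synthesis, transport and breakdown, 5 were higher and 4 lower in the BLA (median log2 fold change 0.10, against -0.03 over all genes). Ddc, which makes dopamine and serotonin from their precursors, was higher by 1.55 ± 0.15. The list for acetylcholine had 4 of 5 higher (median 2.75): Chat, the enzyme that makes acetylcholine, was higher by 4.23 ± 0.81, whereas Bche, a cholinesterase, was lower by 1.25 ± 0.13. Its mean log2 CPM ran from -0.42 to 4.10 over the BLA controls and from -0.76 to 1.705 over the hippocampal ones, so the tissues overlapped. The part of bordering tissue in these and the following differences was not tested. Of 7 genes for nicotinic receptor assembly and modulation, 4 were higher and 1 lower, among them Lypd1, which restrains nicotinic receptors, at 2.07 ± 0.23, and the chaperone gene Tmem35a at 1.31 ± 0.08. Of 11 G protein genes, 7 were higher and 3 lower, with Gnal, the striatal partner of Drd1, at 1.07 ± 0.17. Of 13 adenylyl cyclase and phosphodiesterase genes, 9 were higher and 4 lower, with Adcy5 at 1.66 ± 0.15 and Adcy9 at -0.97 ± 0.10. Receptor kinases, arrestins and RGS proteins had 7 of 11 higher and 2 lower, and downstream effectors 7 of 16 higher and 4 lower, including Prkacb at 1.17 ± 0.05 and Prkca at -1.497 ± 0.098. Histamine genes had 1 of 2 lower, the breakdown enzyme gene Hnmt at -0.26 ± 0.06.

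The genotype comparison asks how the receptor set differs at 9 months between mice with and without the amyloid and tau transgenes. In the hippocampus 2 of 46 genes passed, 4.35%, against 11.1% of all 25791 genes: Htr1a fell and Adra1a rose in APP/Tau mice, where each training state counted equally. Of all genes 7.27% rose and 3.8% fell. The median log2 fold change of the 46 was 0.0029, against -0.0013 over all genes. DESeq2 and limma-voom called 2 as well, also 1 up and 1 down, and 10 of the 46 had an unadjusted p under 0.05, against 28.5% of all genes. Neither gene changed 2-fold.

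Htr1a had 21.3, 36.1, 26.9 and 36.9 CPM in APP/Tau trained hippocampi and 26.4, 32.7, 27.1, 36.3 and 24.7 CPM in APP/Tau naive ones. The controls had 33.6 to 42.5 CPM (median 37.8) when trained, and 43.1, 37.4, 38.7, 35.6 and 37.9 CPM when naive. Of the 9 APP/Tau libraries 6 lay below the lowest control, and the other 3 overlapped the controls. The log2 fold change was -0.36 ± 0.09 (SE, 95% interval -0.54 to -0.18, adjusted p = 0.018). It was -0.39 ± 0.13 in naive mice alone and -0.33 ± 0.13 in trained mice alone (both with adjusted p = 0.17). Without APP/Tau trained replicate 3 it was -0.33 ± 0.09 (adjusted p = 0.051), and with the striatal marker score as a covariate -0.31 ± 0.09 (adjusted p = 0.062).

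Adra1a, the alpha-1A adrenergic receptor, had 31.9, 24.0, 21.6 and 21.5 CPM in APP/Tau trained hippocampi and 25.4, 20.04, 21.0, 21.8 and 24.8 CPM in APP/Tau naive ones. The controls had 17.9 to 22.2 CPM (median 19.3) when trained, and 21.6, 20.2, 20.7, 18.4 and 19.96 CPM when naive. The groups overlapped, and 4 of the 9 APP/Tau libraries lay above the highest control. The log2 fold change was 0.25 ± 0.07 (95% interval 0.12 to 0.39, adjusted p = 0.024). Without APP/Tau trained replicate 1, the highest library, it was 0.19 ± 0.06 (adjusted p = 0.062). In trained mice alone it was 0.34 ± 0.10 (adjusted p = 0.061, the smallest of the 46), and in naive mice alone 0.16 ± 0.10 (adjusted p = 0.43). The value in trained mice was 0.20 ± 0.08 (adjusted p = 0.42) without APP/Tau trained replicate 1, and over the libraries left out in turn its adjusted p ran from 0.026 to 0.42. In 3 hippocampal control libraries 18S ribosomal RNA took more than 3 times the tissue's median share, up to 5.18% of counts. Without these 3 neither gene passed: Htr1a had -0.35 ± 0.10 (adjusted p = 0.057) and Adra1a 0.26 ± 0.08 (adjusted p = 0.072).

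**Figure D4:**
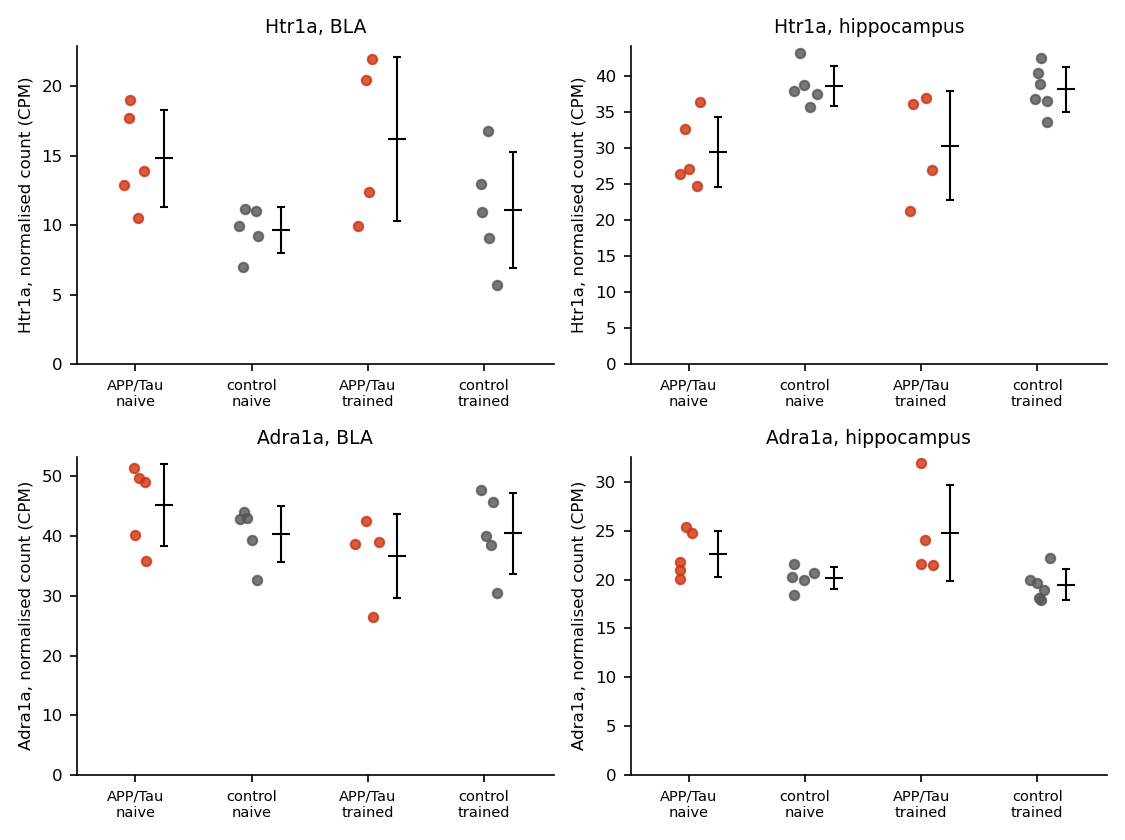
Normalised counts (CPM) of Htr1a (top) and Adra1a (bottom) in every library of the BLA (left) and the hippocampus (right), by genotype and training. Points are libraries and bars the mean ± SD; in the hippocampus most APP/Tau libraries lie below the controls for Htr1a, with 6 of 9 under the lowest control, while for Adra1a the groups overlap.

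The other 8 genes with an unadjusted p under 0.05 had adjusted p of 0.092 or more. Of the muscarinic genes Chrm1 was at -0.26 ± 0.10 (adjusted p = 0.092) and Chrm4 at -0.20 ± 0.08 (adjusted p = 0.10), and Htr1b was at -0.17 ± 0.07 (adjusted p = 0.10). By family, the fold changes of 7 of 9 adrenergic genes were positive (median 0.20) and those of 8 of 12 serotonin and 4 of 5 muscarinic genes negative (medians -0.13 and -0.05). Those of 3 of 5 dopamine, 8 of 12 nicotinic and 2 of 3 histamine genes were positive (medians 0.28, 0.13 and 0.04). The median over all genes was -0.0013, and of these receptor genes only Htr1a and Adra1a were called. In naive mice alone none of the 46 genes passed in edgeR, DESeq2 or limma-voom (1 at an unadjusted p under 0.05, against 15.2% of all genes), and 0.202% of all genes did in edgeR. In trained mice alone 0 passed in edgeR and limma-voom and 1, Adra1a, in DESeq2 (7 at an unadjusted p under 0.05, against 20.3% of all genes), and 2.8% of all genes did in edgeR.

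Cell type markers differed between the same groups. Of 12 microglia markers 11 rose in APP/Tau hippocampi and none fell, with sums of 536.6 to 2034 CPM in APP/Tau and 417.1 to 510.3 CPM in control libraries. Of 11 astrocyte markers 9 rose and none fell (4433 to 10630 CPM in APP/Tau and 4133 to 4641 CPM in controls), and of 10 oligodendrocyte markers 6 rose. Of 8 dentate granule cell markers 3 fell and none rose (331.5 to 642.7 CPM in APP/Tau and 530.8 to 771.8 CPM in controls), and 1 of 10 pan-neuronal markers fell. No marker of these lists was at 0 throughout a group. Their part in the Htr1a and Adra1a differences was not tested.

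Genes along the signalling chain were compared in the same mice. Of 13 adenylyl cyclase and phosphodiesterase genes 5 fell and none rose, among them the calcium-stimulated cyclase Adcy1 (-0.33 ± 0.09, adjusted p = 0.026) and the phosphodiesterases Pde7b (-0.35 ± 0.10, adjusted p = 0.025) and Pde4a (-0.18 ± 0.05, adjusted p = 0.023). Of 11 G protein genes 3 fell and 1 rose: Gng7 (-0.39 ± 0.10) and Gnal (-0.18 ± 0.05) were among those that fell, and Gnai2 rose (0.30 ± 0.08). Of 16 downstream effectors 3 fell and 2 rose, with the potassium channel genes Kcnj9 (-0.20 ± 0.05) and Kcnq3 (-0.32 ± 0.10) lower and the phospholipase gene Plcb3 higher (0.46 ± 0.12). Of 11 receptor kinases, arrestins and RGS proteins 1 fell, Grk3 (-0.16 ± 0.04). Of 14 monoamine genes the breakdown enzymes Maoa (0.23 ± 0.05) and Maob (0.20 ± 0.05) rose and none fell, and Hdc, the histamine-forming enzyme, rose (0.91 ± 0.29, adjusted p = 0.049). Of 7 genes for nicotinic assembly Rapsn, the muscle receptor anchor, rose (1.14 ± 0.26) and Lypd1 fell (-0.48 ± 0.12), and none of 5 acetylcholine genes passed. These lists' medians lay between -0.15 and 0.47, against -0.0013 over all genes.

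In the BLA none of the 45 genes passed the genotype comparison in edgeR or limma-voom, against 1.18% of all 23168 genes, and 10 had an unadjusted p under 0.05, against 19% of all genes. DESeq2 called Chrm4 lower and Htr1a higher in APP/Tau mice. Chrm4 had 32.9, 55.2, 37.5 and 36.6 CPM in APP/Tau trained BLA and 38.0, 48.2, 30.7, 37.6 and 43.2 CPM in APP/Tau naive BLA. It had 43.5, 54.6, 64.4, 49.4 and 53.7 CPM in control trained BLA and 38.4, 52.4, 56.0, 47.2 and 54.3 CPM in control naive BLA. The groups overlapped, and most APP/Tau libraries lay below most controls. The log2 fold change was -0.35 ± 0.10 (95% interval -0.56 to -0.15, edgeR adjusted p = 0.088).

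Without APP/Tau trained replicate 2, the highest APP/Tau library for Chrm4, 4 genes passed: Chrm4 (-0.44 ± 0.09, adjusted p = 0.0081) and Chrm1 fell, and Htr1a and Chrna5 rose. Without control trained replicate 2, which had the highest striatal marker score of the controls, Htr1a and Chrm3 passed. No BLA gene passed in naive or in trained mice in edgeR, DESeq2 or limma-voom, and 0.0388% and 0.0432% of all genes passed in edgeR. At an unadjusted p under 0.05 there were 4 genes in naive mice, against 13.2% of all genes, and 6 in trained mice, against 10.3%. The smallest p in naive mice was that of Adrb1, the beta-1 adrenergic receptor. It had 22.8, 30.9, 26.2, 26.9 and 23.2 CPM in APP/Tau and 32.1, 31.9, 29.95, 32.8 and 33.3 CPM in control naive BLA, with 1 APP/Tau library reaching the control range (-0.29 ± 0.10, adjusted p = 0.29). In trained mice it was that of Chrna5, at 2.18, 1.66, 7.83 and 1.90 CPM in APP/Tau and 0.897, 0.716, 1.42, 1.02 and 2.14 CPM in control BLA. A single APP/Tau library was far above the rest. The log2 fold change of 1.46 ± 0.44 (adjusted p = 0.23) became 0.63 ± 0.36 (adjusted p = 0.64) without that library, APP/Tau trained replicate 3.

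**Figure D5:**
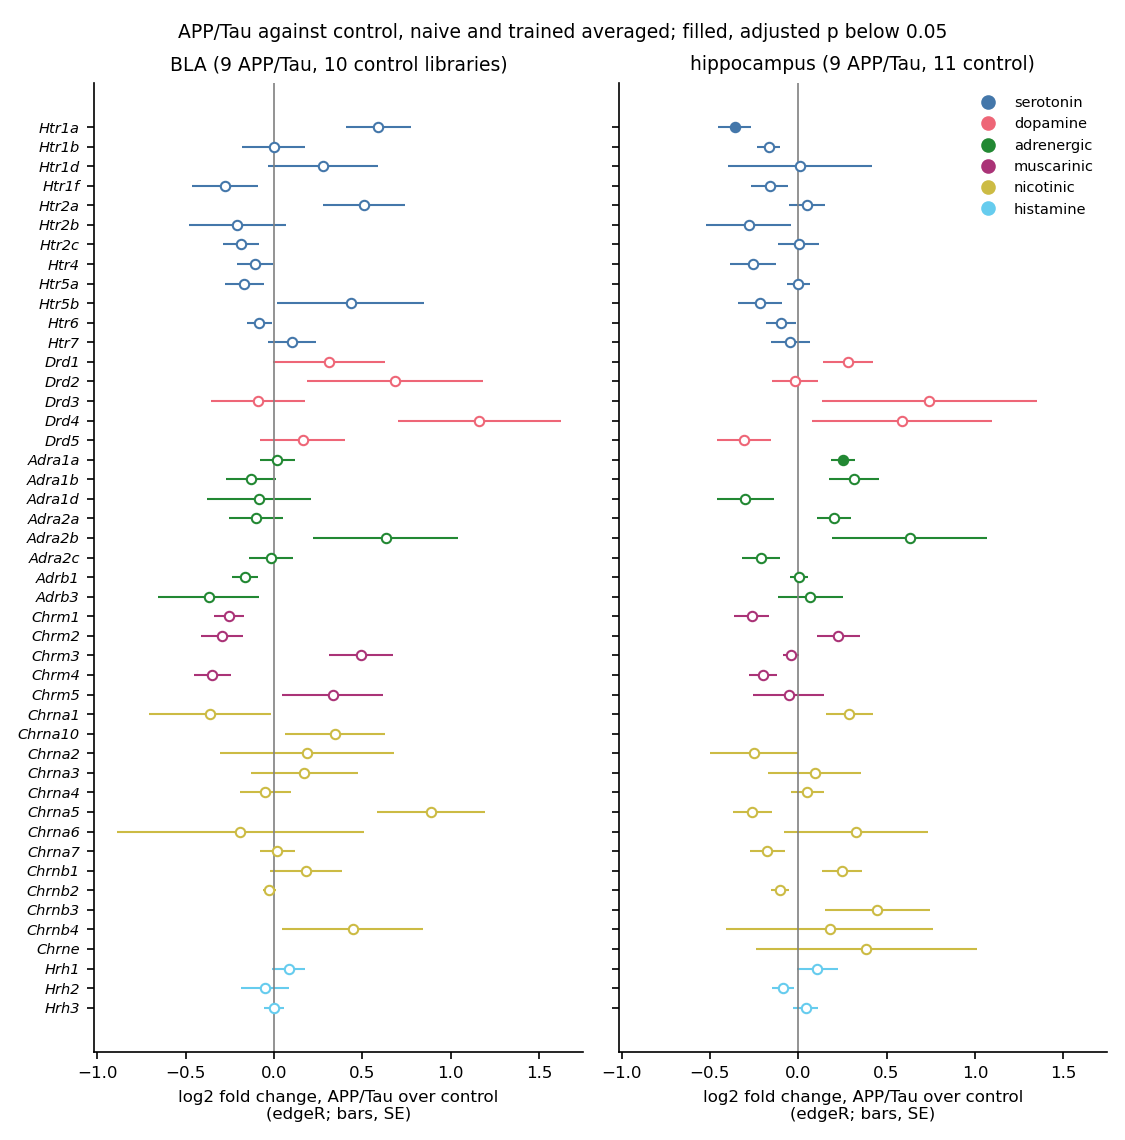
Log2 fold change of APP/Tau over control, averaged over naive and trained mice, for the receptor genes tested, all but 1, in the BLA (left) and the hippocampus (right), on the same axis, with bars for the SE. Filled points passed an adjusted p of 0.05 in edgeR, which Htr1a and Adra1a did in the hippocampus and no gene did in the BLA.

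Among the pathway lists 1 gene passed in the BLA, where 1.18% of all genes did. It was Lynx1, which damps nicotinic receptors and fell by 0.39 ± 0.09 on the log2 scale (adjusted p = 0.036). Of 12 microglia markers 9 rose there, and of 10 pan-neuronal markers 2 fell. The sum of the striatal markers was 914 to 5371 CPM in APP/Tau and 521.5 to 4697 CPM in control BLA, with none of the 15 called.

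The Htr1a fold changes had opposite signs in the tissues, and only the hippocampal one passed in edgeR. In the BLA Htr1a had 12.4, 9.92, 20.5 and 22.0 CPM in APP/Tau trained and 17.8, 19.03, 13.9, 12.9 and 10.5 CPM in APP/Tau naive mice. It had 10.97, 16.8, 5.71, 9.09 and 12.9 CPM in control trained and 9.20, 6.99, 9.94, 11.1 and 10.99 CPM in control naive mice. The groups overlapped in the BLA, and the averages were 15.4 ± 4.5 CPM in APP/Tau and 10.4 ± 3.1 CPM in control mice (SD, n = 9 and 10). The log2 fold change was 0.59 ± 0.18 (95% interval 0.23 to 0.95, adjusted p = 0.097) in the BLA, against -0.36 in the hippocampus.

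The difference between the genotype effects of the tissues was 0.94 ± 0.21 on the log2 scale (95% interval 0.53 to 1.35), with an unadjusted p of 6.7e-05 and an adjusted p of 0.14 in edgeR. By unadjusted p it ranked 11th of all 26725 genes, of which 0.0262% passed. Without a replicate block none of the 47 receptor genes passed in edgeR or limma-voom and 1, Htr1a, did in DESeq2 (adjusted p = 0.0099). Htr1a also passed in edgeR with a block on the library number. No label ties that number to a mouse, but for all 19 shared numbers genotype and training were the same in both tissues. In edgeR without the block 5 of the 47 had an unadjusted p under 0.05, against 8.34% of all genes. The edgeR adjusted p of Htr1a, with no block, was 0.026 without BLA control trained replicate 2 and 0.034 without BLA APP/Tau trained replicate 2. Over its alternatives it ran from 0.0099 to 0.47, with the difference always between 0.85 and 1.04. In the BLA libraries Htr1a had r = 0.586 and rho = 0.537 with the striatal marker score (permutation adjusted p = 0.057 and 0.13), and r was 0.473 without the 2 farthest libraries. The part of that score in the difference between tissues was not tested.

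The training comparison asks whether receptor RNA differed 1 hour after conditioning. No receptor gene passed in either tissue or genotype, in edgeR, DESeq2 or limma-voom, and 0% of all genes passed in edgeR in each of the 4 comparisons. At an unadjusted p under 0.05 there was 1 gene of 46 in control hippocampi, against 2.42% of all genes, and 1 in APP/Tau hippocampi, against 4.59%. In the BLA there were 5 genes of 45 in APP/Tau mice, against 5.85%, and 0 in controls, against 2.09%.

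In control hippocampi the smallest p belonged to Htr2c, with 31.0 to 44.3 CPM (median 33.9) in trained and 38.7, 44.95, 46.6, 29.2 and 60.5 CPM in naive mice, which overlapped. The log2 fold change was -0.33 ± 0.16 (adjusted p = 1.0), and -0.19 ± 0.15 without control naive replicate 5, the highest library. In APP/Tau hippocampi it belonged to Hrh3, with 37.7, 34.2, 35.3 and 38.4 CPM in trained and 45.8, 35.7, 43.3, 46.9 and 44.0 CPM in naive mice (-0.25 ± 0.11, adjusted p = 0.99). Of the naive libraries 4 of 5 were above all trained ones. In control BLA it was Chrna6, at 0.189 CPM or less in all 10 libraries, and in APP/Tau BLA it was Chrna5, with the values given above for trained mice and 0.557, 1.05, 0.763, 0.777 and 1.956 CPM in naive mice. The Chrna5 log2 fold change was 1.72 ± 0.44 (unadjusted p = 0.000925, adjusted p = 0.71), and 0.89 ± 0.36 without APP/Tau trained replicate 3.

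No receptor gene passed the test of a training effect that differs between genotypes in edgeR, DESeq2 or limma-voom, where 0 of 46 hippocampal and 0 of 45 BLA genes had an unadjusted p under 0.05, against 3.9% and 3.86% of all genes, and 0% of all genes passed in edgeR. The smallest p was that of Chrm3 in the hippocampus (-0.19 ± 0.09, adjusted p = 0.98) and of Adra1d in the BLA (1.15 ± 0.59, adjusted p = 0.95). Chrm3 lay between 57.3 and 73.4 CPM in all 20 hippocampal libraries. Adra1d had 6.49, 15.6, 33.0 and 7.49 CPM in APP/Tau trained and 6.06, 5.01, 9.25, 9.82 and 11.4 CPM in APP/Tau naive BLA. In controls it had 6.92, 4.29, 16.2, 15.01 and 13.5 CPM in trained and 20.3, 12.3, 9.92, 13.5 and 10.4 CPM in naive BLA, so that the 4 groups overlapped. Its interaction was 0.48 ± 0.51 without APP/Tau trained replicate 3, the library that was also highest for Chrna5.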

How the data were processed

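The authors deposited 1 table per tissue of raw gene counts, whole numbers per gene and library without normalization; reads were trimmed with Trimmomatic 0.39 and the genome build was mm39, as named in the submitters' processing notes. For the aligner, the counter and strandedness, names and settings were not given in the sources used here. Even numbers made up 54.3 to 69% of counts between 1 and 20, and whether mates of a pair were counted separately was not tested. No pair of libraries of a group was a duplicate (smallest chi-square per gene 16.7 over 36 BLA and 22.8 over 41 hippocampal pairs).

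Counts were analysed in R 4.3.3 with edgeR 4.0.16: filterByExpr (minimum count 10, minimum total 15), TMM factors and the quasi-likelihood F test (2-sided), with Benjamini-Hochberg adjustment over all genes tested and a threshold of 0.05. A fit of all 39 libraries with 8 group means gave the regional and region-by-genotype comparisons, with libraries taken as independent, also where 1 mouse may have given a library of each tissue. A fit per tissue with 4 group means gave the rest. The steps were tested on simulated counts. Levels are CPM with TMM factors over all libraries, log2 values use a prior count of 2, and intervals are 1.96 SE either side. Correlations used 100000 permutations. DESeq2 1.42.0, limma-voom (limma 3.58.1), other scalings and filters, replicate blocks, a marker covariate and left-out libraries were tried. Exon lengths and overlaps are from GENCODE M21 (GRCm38), where all 52 symbols matched.

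Members, lists and tests were chosen with earlier results of these data known. Values are given per library for genes called in a genotype, training or interaction comparison (or the smallest p where none was), and for the 6 highest in each region with a mean of at least 1 CPM. Other genes are given by counts and ranges. Each library is labelled as a separate sample, with a mouse not named, so p-values measure the spread between libraries. Values of 1 gene are not reported here, though it is in the counts of genes.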

Additional observations from a re-analysis of the deposited data

Results flagged for a closer look

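The 20 receptor genes described by library were checked with Dixon's 95% critical values for single libraries that stand apart in each of the 8 groups. Of 160 checks 15 found one, each the highest library of its group. Chance alone gives about 1 in 20 for independent, normally distributed values, which CPM values of genes from the same libraries are not. In APP/Tau trained BLA replicate 3, Chrna5 had 7.827 CPM and Chrnb3 0.5411 CPM, with the next libraries at 2.175 and 0.1395 CPM. In APP/Tau naive BLA replicate 2, Drd1 had 140.1 CPM (next 47.28) and Htr5b 0.9359 CPM (next 0.3433). In control trained BLA replicate 2, Drd1 had 119.4 CPM (next 41.85), Drd2 145.9 CPM (next 45.76) and Htr1d 23.98 CPM (next 8.672). These last libraries also had the highest striatal marker scores of their groups, 7.208 for APP/Tau naive replicate 2 and 7.096 for control trained replicate 2; the part of bordering tissue was not tested. In control naive BLA replicate 3, Drd5 had 3.547 CPM (next 1.859).

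In the hippocampus, APP/Tau naive replicate 3 had the highest Chrna10, 0.3327 CPM (next 0.04478), and Drd3, 0.4226 CPM (next 0.1479), and also the highest striatal marker score of the tissue, 3.363. Drd2 stood apart in control naive replicate 1, at 4.43 CPM (next 3.188), and in control trained replicate 1, at 3.821 CPM (next 2.782). They are 2 of the 3 hippocampal libraries rich in 18S RNA, at 5.18% and 1.99% of counts, against a tissue median of 0.091%. The other is control trained replicate 3, at 0.286%, and the part of 18S RNA was not tested. Among the other control trained hippocampi, Chrnb4 had 3.054 CPM in replicate 3 (next 1.088), Drd5 had 21.41 CPM in replicate 4 (next 18.1) and Htr2c had 44.34 CPM in replicate 6 (next 34.51). With all libraries and no replicate block, no receptor gene passed edgeR's tests of a difference between the effects in 2 groups.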

How the results depend on the processing

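The regional count of 40 stayed between 33 and 42 over 10 alternative settings and between 40 and 41 without any 1 library, and the 12 of its genes recomputed singly (Htr5b, Chrnb3, Chrna5, Drd5, Chrnb4, Adra1d, Chrna2, Drd1, Drd2, Drd3, Htr1d and Chrna10) kept their direction and call wherever they were tested. The genotype counts were less stable. In the hippocampus (2 genes, averaged over training) 6 passed with a replicate block on the title number, 1 with the striatal marker covariate, 0 without the libraries rich in 18S RNA, and 1 to 5 without any 1 library (1 without APP/Tau trained replicate 1 or 3, 5 without trained replicate 2, 4 without trained replicate 4 or naive replicate 2). In trained hippocampi (0 genes) DESeq2 called 1, the replicate block 2, and leaving out a library 0 to 2 (2 without APP/Tau trained replicate 4, 1 without trained replicate 2 or naive replicate 5). In the BLA (0 genes) DESeq2 called 2, and leaving out a library gave 0 to 4, or 0 to 3 in trained mice (4 and 3 without APP/Tau trained replicate 2, 2 and 0 without control trained replicate 2). For region by genotype (0 genes) DESeq2 called 1, the replicate block on the library number 1 (Htr1a, adjusted p = 0.048), and leaving out a library 0 to 1 (1 without either of these 2 BLA libraries). The cause was not tested, and leaving libraries out also leaves fewer samples. The blocks changed no other call, and no result changed direction.

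For samples sharing a title number within a tissue, deviations from group means had a mean r of -0.0433 in the BLA and 0.0663 in the hippocampus. Other pairs averaged 0.0113 and -0.0141. Above 0.1 were 7 of 27 such pairs in the BLA, against 30 of 108 others, and 10 of 27 in the hippocampus, against 26 of 122. What those numbers mark is not stated. Libraries of the 2 tissues with the same library number correlated in 17 of 19 cases above 0.1 (mean r 0.27), a hint from the data that they share a mouse. All 19 of these numbers had the same genotype and training in both tissues. For 14 of the 19 BLA libraries the hippocampal library with the highest r had the same number. Depth limits the genes under about 1 CPM, where a few counts set a value.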
